A study of Homo sapiens with 8 samples.

Results

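The genes described here are 9 widely studied targets of miR-155, measured in KM-H2 cells, an established Hodgkin lymphoma (HL) cell line with a high level of this miRNA. They are BACH1, WEE1, CEBPB, PICALM, HIVEP2, FOXO3, INPP5D, TP53INP1 and SPI1. Every array probe whose transcript accession belongs to one of these genes was taken, without regard to its values, which gave 12 of the 41000 probes on the array. CEBPB, PICALM and FOXO3 have 2 probes each and the other genes have 1. Of the 12 probes, 9 passed the filters on detection and on dye agreement, for 7 genes, as did 17912 probes in all, and 6 of the 9 stood well above background in every one of the 8 channels. A probe is called well above background by the scanner software, which sets its signal against that of the surrounding background.

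The cells carried either the empty pMSCV-PIG vector (EV) or the miR-155 sponge construct (labelled miR-155-sp and called sponge cells), and after transduction GFP-positive cells were sorted in both cases, so both populations carry a retroviral insert and had passed the same sort. From each population, total RNA (T) and RNA bound to an antibody against Ago2 (IP) were extracted. Each of these 4 RNAs was labelled with Cy3 and again with Cy5, and the total and the IP RNA of a population shared an array in opposite dyes, on 4 arrays in all. Because both labellings measure the same RNA, a group has 1 sample, no test between groups can be made, and the ranges below cover labelling and array error only. An anti-IgG precipitate was not analysed here, so RNA held by the beads cannot be told apart from RNA held by Ago2.

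miR-155 is processed from the BIC (MIR155HG) transcript and is abundant in activated lymphocytes and in Hodgkin lymphoma. Loaded into an Argonaute protein such as Ago2, a miRNA pairs through its seed with sites that lie mostly in the 3′UTRs of mRNAs, and the bound mRNA is translated less and degraded faster. A transcript held by Ago2 is enriched in the IP over the total fraction (IP/T ratio), and a sponge, a transcript with many binding sites for a miRNA, competes with the natural targets for it.

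The mature miRNAs of the locus are shown because the seed, bases 2 to 8 and here in capitals, is what a target site or a sponge pairs with. The sequences are from RefSeq on GRCh38.p14, where miR-155-5p, the arm that these genes are targets of, lies at chr21:25573983-25574006 and miR-155-3p at chr21:25574022-25574043, both on the plus strand.
hsa-miR-155-5p: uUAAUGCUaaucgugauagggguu
hsa-miR-155-3p: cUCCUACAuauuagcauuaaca
The arms have different seeds, and of the 2545 human mature miRNAs in that table only 1, miR-155-5p itself, has the seed UAAUGCU. In the mRNA, the site that matches it reads AGCATTAA in the 8-base form and GCATTA in the 6-base form. Transcript sequences were not used here, so no site is assigned to a gene.

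In EV-transduced cells, 4 of the 9 retained probes (44.4%) were enriched at least 2-fold in the IP, against 14.8% of all retained probes. They detect BACH1, WEE1, CEBPB and PICALM. None had an IP/T ratio of 0.5 or less, where 12.9% of all retained probes lay, and 2 reached 16 or more, against 0.726%. INPP5D lay just above that lower cut, at 0.513. It fell below the cut with a common median (log2 IP/T -1.05) and in the Cy5 labelling alone (-1.07). With normexp it lay further above the cut (-0.52 with loess, -0.68 with quantile normalization). The median log2 IP/T was 0.84 for the 9 probes and -0.24 for all retained probes. With background corrected by normexp and loess normalization, a different set of 10 probes of these genes was retained and 2 of them, for WEE1 and CEBPB, reached an IP/T ratio of 2. Their log2 IP/T was then 3.29 and 2.09. BACH1 still had 3.93 but was dropped there because its labellings disagreed, and PICALM had 0.50. The 14.8% of all retained probes belongs to the main processing, and no such share is given for normexp.

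**Figure D1:**
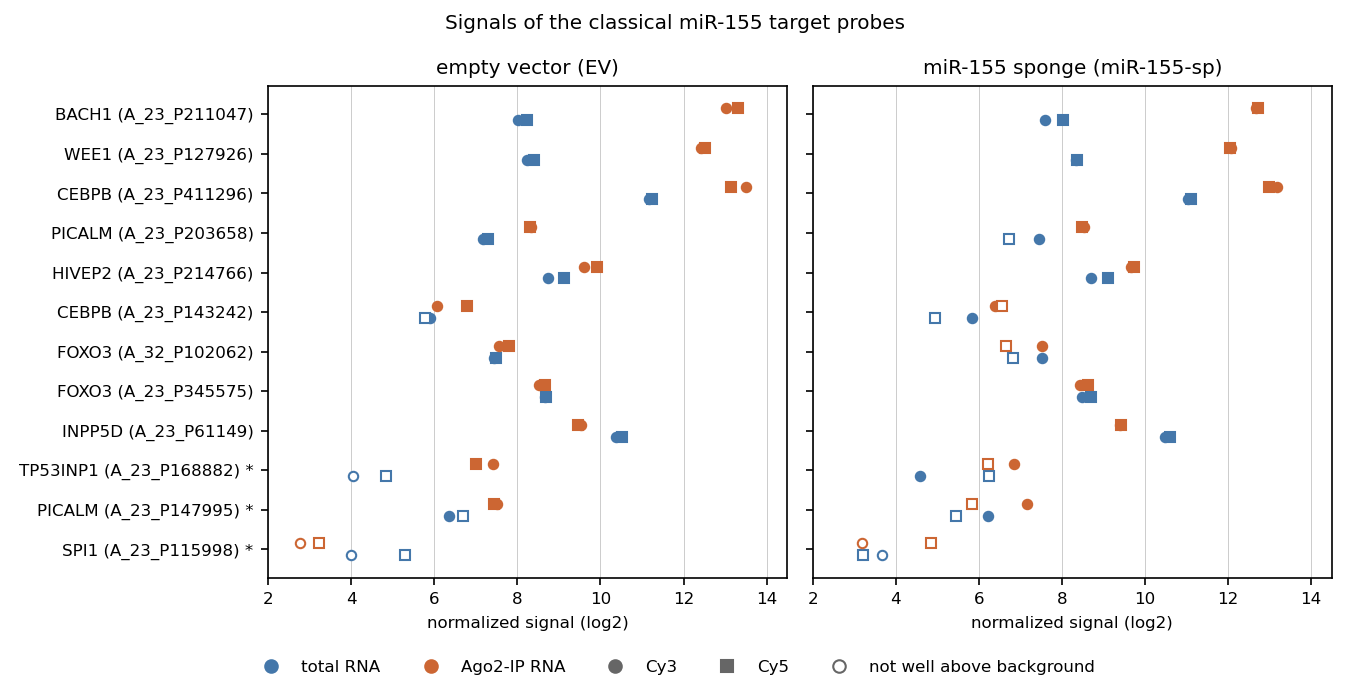
Normalized log2 signal (horizontal axis) of each of the 12 probes of the 9 genes (vertical axis) in the 8 channels, with 1 panel for EV cells and 1 for sponge cells. Total and Ago2-IP RNA differ in colour, and the Cy3 and Cy5 labellings are separate points. Open points are not well above background and an asterisk marks a probe that was not retained; BACH1 and WEE1 step up from about 8 in total RNA to over 12 in the IP in both populations, and SPI1 has open points only.

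BACH1 is a haem-sensing transcriptional repressor of antioxidant genes. In EV cells its total RNA gave a log2 signal of 8.01 in Cy3 and 8.24 in Cy5, and its IP gave 13.02 and 13.32. In sponge cells the total RNA gave 7.60 and 8.02, and the IP gave 12.66 and 12.72. The IP channels thus lay far above the total channels of either population, with no overlap. The IP/T ratio in EV cells was 33.0 (39.7 with the IP in Cy5, 27.5 with the IP in Cy3), which ranks 14 among the 17912 retained probes. In sponge cells the ratio was 29.4 (34.7 and 24.9) and the rank 41. With normexp and quantile normalization the log2 IP/T in EV cells was 3.76 rather than 5.05.

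WEE1 is the kinase that restrains entry into mitosis by phosphorylating CDK1. Its total RNA gave 8.24 in Cy3 and 8.41 in Cy5 in EV cells, and 8.35 and 8.36 in sponge cells. Its IP gave 12.43 and 12.51 in EV cells, and 12.07 and 12.04 in sponge cells. Total RNA therefore overlapped between the populations, while both IP labellings were lower with the sponge. The IP/T ratio was 17.7 in EV cells (19.2 and 16.2 in the 2 dye orientations) and 13.0 in sponge cells (12.9 and 13.1), with ranks of 110 and 219. With normexp and quantile normalization the log2 IP/T in EV cells was 3.21 rather than 4.14.

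CEBPB, a basic leucine zipper factor of inflammatory and myeloid genes, was detected well by 1 of its 2 probes. On that probe (A_23_P411296) total RNA gave 11.18 and 11.24 in EV cells and 11.04 and 11.10 in sponge cells. The IP gave 13.51 and 13.15 in EV cells and 13.17 and 12.99 in sponge cells. Its enrichment was 4.35-fold in EV cells (3.92 and 4.84) and 4.03 in sponge cells (3.89 and 4.19), and these ranges overlap. The other probe (A_23_P143242) was dim, with a signal of 5.89 or less in all 4 total RNA channels and well above background in 5 of 8 channels. Its IP/T ratio was 1.5 in EV cells (1.85 and 1.22) and 2.11 in sponge cells (1.65 and 2.70). Only the bright probe therefore placed CEBPB past 2-fold in both populations.

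PICALM, an adaptor protein of clathrin-mediated endocytosis, lay at the 2-fold line. On its retained probe (A_23_P203658) total RNA gave 7.17 and 7.28 in EV cells and 7.44 and 6.71 in sponge cells, the last not well above background. The IP gave 8.32 in both labellings of EV cells, and 8.54 and 8.49 in sponge cells. The resulting ratio was 2.13 in EV cells (2.21 and 2.05) and 2.71 in sponge cells (2.08 and 3.54). The higher value in sponge cells came from the orientation whose total RNA channel was not well above background. The second probe (A_23_P147995) was not retained, because its labellings differed by more than 2-fold in the miR-155-sp IP, with signals of 7.16 and 5.82. Its ratio in EV cells was 1.93 (2.11 and 1.77).

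HIVEP2, a zinc finger protein that binds enhancer motifs of the NF-kB type, lay just under that line. Its total RNA gave 8.74 and 9.13 in EV cells and 8.69 and 9.10 in sponge cells, and its IP gave 9.61 and 9.92, and 9.67 and 9.73. Every IP channel was above every total channel, by a small margin. Its IP/T ratio was 1.79 in EV cells (2.27 and 1.40) and 1.75 in sponge cells (2.06 and 1.48), so the dye orientations fell on opposite sides of 2 in each population.

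FOXO3, a forkhead factor that AKT holds in check and that drives arrest and apoptosis genes, was not enriched in the IP. On its bright probe (A_23_P345575) total RNA gave 8.67 and 8.69 in EV cells and 8.49 and 8.70 in sponge cells, and the IP gave 8.52 and 8.66, and 8.44 and 8.63. All 8 channels thus lay together. The ratio was 0.938 in EV cells (0.989 and 0.890) and 0.959 in sponge cells (1.1 and 0.833). The second probe (A_32_P102062) gave 1.16 in EV cells (1.30 and 1.05) and 0.940 in sponge cells, where the orientations ranged from 0.544 to 1.62 and both Cy5 channels were not well above background.

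INPP5D encodes SHIP1, a lipid phosphatase that opposes PI3K signalling in blood cells. It had the lowest IP/T ratio of the 9 retained probes. Its total RNA gave 10.38 and 10.52 in EV cells and 10.48 and 10.60 in sponge cells, and its IP gave 9.52 and 9.45, and 9.40 and 9.41. The IP channels were all below the total channels. Its ratio was 0.513 in EV cells (0.526 and 0.501) and 0.454 in sponge cells (0.475 and 0.434), and 14.2% of all retained probes had a lower ratio in EV cells.

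The last genes were at or near the detection limit. TP53INP1, a stress protein induced by p53, gave total RNA signals of 4.05 and 4.84 in EV cells, neither well above background, and IP signals of 7.41 and 7.0, both well above it. For an IP/T ratio in EV cells, total RNA was therefore set to a substitute level, which gave 4.16-fold. That level was the lowest signal among probes well above background in each channel. The result is not a strict lower bound, since a probe above that level can also fail the call. The second PICALM probe did so at 6.69 in the Cy5 total channel of EV cells, where that level was 5.99. The value also holds for the processed signals only, since with normexp the log2 IP/T was 0.44 (loess) or 0.72 (quantile normalization). In sponge cells total RNA gave 4.58 in Cy3, well above background, and 6.25 in Cy5, not well above it, and the IP gave 6.85 and 6.23, again with the Cy5 channel not well above background. The measured ratio there was 2.17 (3.12 and 1.51), and the disagreement of the labellings removed this probe. SPI1 encodes PU.1, an ETS factor of myeloid and B cells. It was not well above background in any of the 8 channels, with signals from 2.77 to 5.31, and no ratio is given for it.

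The 9 retained probes thus fell in the order BACH1, WEE1, CEBPB, PICALM, HIVEP2, CEBPB (dim probe), FOXO3 (dim probe), FOXO3 and INPP5D in EV cells. The ranges over the dye orientations did not overlap between BACH1 and WEE1, WEE1 and CEBPB, CEBPB and PICALM, the FOXO3 probes, or FOXO3 and INPP5D. They overlapped between each other pair of neighbours, from PICALM down to the dim FOXO3 probe. In sponge cells 5 of the 9 probes had a ratio of at least 2, against 15.6% of all retained probes, the added one being the dim CEBPB probe. The median log2 IP/T was 1.08 there, and -0.26 for all retained probes. Only the 3 bright probes of BACH1, WEE1 and CEBPB kept a ratio of at least 2 when probes well above background in all 8 channels were required.

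**Figure D2:**
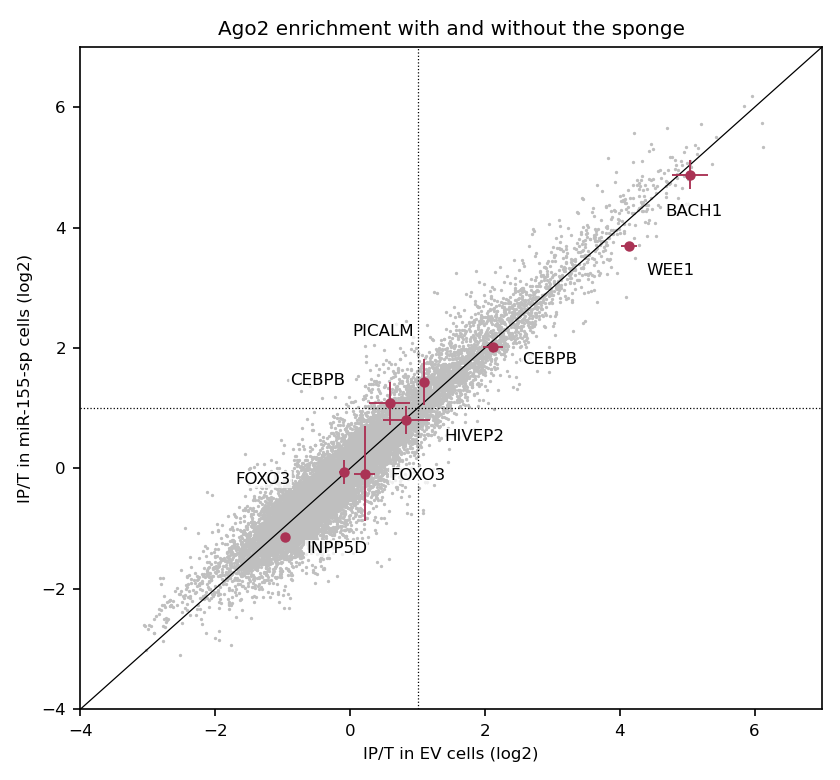
Log2 IP/T ratio in EV cells (horizontal axis) and in sponge cells (vertical axis) for all 17912 retained probes (grey) and the 9 retained probes of the miR-155 targets (red), whose bars span the 2 dye orientations. The solid line marks equal ratios and the dotted lines a 2-fold ratio; WEE1 lies clearly below the line among the strongly enriched probes, and INPP5D is at the lower left.

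The sponge comparison asked whether these genes are less bound by Ago2 in cells where the sponge competes for miR-155. The study proposed that the sponge left part of the miR-155 in these cells free, probably owing to its very high level. How far miR-155 was sequestered was not measured here. The IP/T ratio was lower in sponge cells in both dye orientations for 4 of the 9 probes (44.4%), against 30.3% of all retained probes. These were BACH1, WEE1, the bright CEBPB probe and INPP5D. No probe was higher in both orientations, against 30.6%, and 5 changed in opposite directions, against 39.1%. Where every one of the 8 channels was well above background the count was 4 of 6, against 30.7%. The median change in log2 IP/T, as miR-155-sp minus EV, was -0.11 for the 9 probes and -0.0025 for all retained probes. When the channels were only scaled to a common median, the median change of the 9 probes was -0.02.

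WEE1 changed most among the 6 probes detected in every channel. Its log2 IP/T fell by 0.44, which is 0.736 of the EV ratio, with changes of -0.57 and -0.31 in the 2 orientations (SD 0.19 over the 2 orientations, which are technical repeats). The fall lay in the IP, where the log2 signal changed by -0.41 (-0.36 in Cy3, -0.47 in Cy5), while total RNA changed by 0.03 (0.10 and -0.05). Of the 62 other probes that were detected in all 8 channels and reached an EV ratio of at least 16, 0 fell further than WEE1. This comparison set was chosen after the values were seen. The median change of those 62 probes was 0.09, with 5th and 95th percentiles of -0.18 and 0.46. Of the 1701 others with a ratio of at least 2, 57 (3.35%) fell further. Among all retained probes 6.86% fell further, and the WEE1 change lay within their 5th to 95th percentiles, -0.51 to 0.53. The WEE1 change was negative in every alternative computed, from -0.64 to -0.31.

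BACH1 and CEBPB were lower in both RNA fractions. The log2 signal of BACH1 changed by -0.48 in the IP (-0.37 in Cy3, -0.60 in Cy5) and by -0.32 in total RNA (-0.41 in Cy3, -0.23 in Cy5). Its IP/T ratio accordingly changed by -0.17 on the log2 scale (-0.19 and -0.14 in the 2 orientations). Of the 62 strongly enriched probes 6 fell further, and 373 of the 1701 other enriched probes (21.9%) fell further. When the labellings were taken one dye at a time, the change of BACH1 was 0.04 in Cy3 and -0.37 in Cy5, so its direction depends on the labelling. The bright CEBPB probe changed by -0.25 in the IP (-0.35 and -0.15) and by -0.14 in total RNA in both labellings. Its log2 IP/T changed by -0.11 (-0.01 and -0.21), and 524 of the 1701 other enriched probes (30.8%) fell further.

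INPP5D was also lower in IP/T with the sponge, from a ratio already below 1. Its log2 IP/T changed by -0.17 (-0.15 and -0.20), with -0.08 in the IP and 0.09 in total RNA. With normexp and loess normalization that change was -0.03. HIVEP2 changed by -0.03 (-0.14 and 0.08) and the bright FOXO3 probe by 0.03 (0.16 and -0.09), both within the difference between orientations. The dim probes of PICALM, CEBPB and FOXO3 changed by 0.35 (-0.09 and 0.79), 0.49 (-0.17 and 1.15) and -0.31 (-1.25 and 0.63). For each of these 3 probes at least 1 Cy5 channel of sponge cells was not well above background, and the 2 orientations lay on opposite sides of 0.

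**Figure D3:**
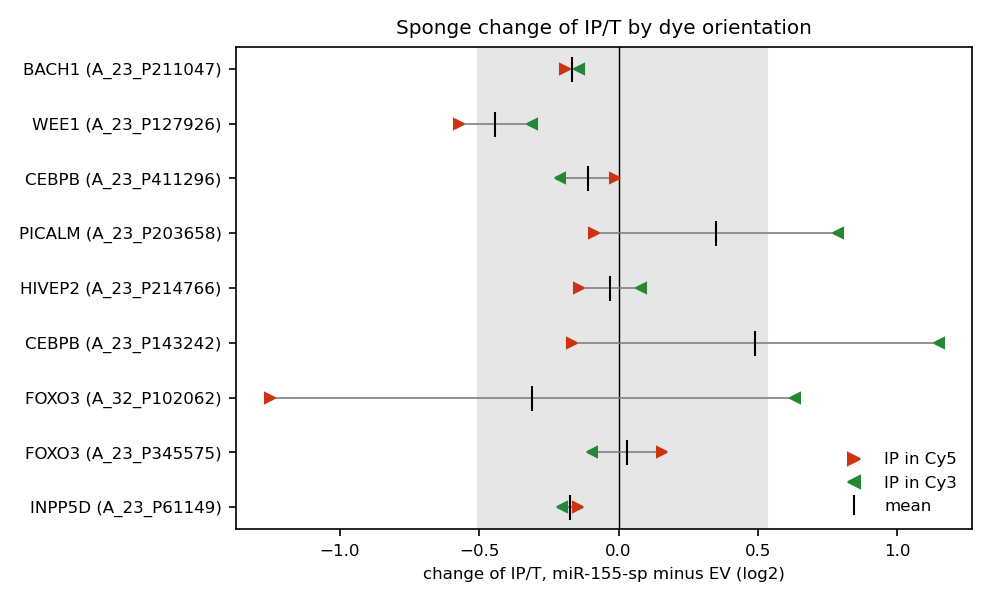
Change in log2 IP/T ratio, miR-155-sp minus EV (horizontal axis), for each retained probe of the miR-155 targets (vertical axis), with a point for each dye orientation and a short bar for their mean. The grey band spans the 5th to 95th percentiles of all retained probes, -0.51 to 0.53; both WEE1 points lie to the left of 0, and the widest spreads belong to dim probes.

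Release from miR-155 could also show as a higher level of total RNA. No retained probe of the 9 genes rose by 1.5-fold in total RNA in both labellings, against 0.195% of all retained probes, and none fell by that much, against 0.67%. Total RNA was lower with the sponge in both labellings for 4 of the 9 probes (32.9% of all retained probes) and higher in both for 1 (32.4%), the INPP5D probe. The median change was -0.14, against 0.0001 over all retained probes, and -0.06 for the 6 probes detected in every channel. Its size and direction depend on the processing, since it was 0.0153 with normexp and loess and -0.0159 with normexp and quantile normalization. In the IP, 6 of the 9 probes were lower in both labellings (32.6% of all retained probes), and the median change was -0.08, which became -0.268 with normexp and quantile normalization and -0.249 without the agreement filter. In a bulk sample, fewer cells that express a gene and less RNA per cell cannot be told apart, and 1 RNA per group leaves the spread between cultures unknown.

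**Figure D4:**
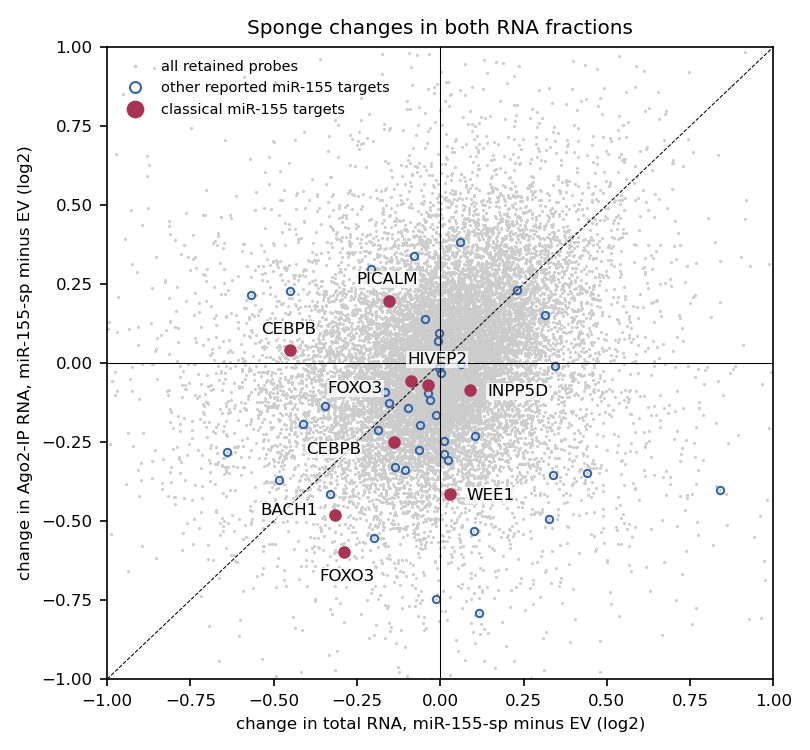
Change in log2 signal with the sponge in total RNA (horizontal axis) and in Ago2-IP RNA (vertical axis), each as miR-155-sp minus EV, for all retained probes (grey), other reported miR-155 targets (open blue) and the probes of the 9 genes (red); 106 retained probes lie outside the axes. On the dashed line both fractions changed alike and IP/T did not change; WEE1 lies below it with total RNA near 0, and BACH1 is low in both fractions.

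A list of 40 other reported miR-155 targets gave a wider view. It was matched to 62 probes of 39 genes, and 44 probes of 32 genes were retained. Of the 44, 21 (47.7%) were enriched at least 2-fold in EV cells, against 14.8% of all retained probes. This is near the share of the 9 probes. With normexp, 54 probes were retained, of which 13 (loess) or 12 (quantile normalization) were enriched. The highest ratio was that of SOCS1, an inhibitor of cytokine signalling, at 19.2 on 1 probe and 9.24 on the other. RICTOR, the defining subunit of mTORC2, gave 17.0 on a probe too dim for its Cy5 total channel to pass background, and 3.85 on its other probe. The lowest were E2F2 at 0.420, RHOA at 0.533 and FADD at 0.610, each on 1 probe. Other retained probes gave 0.667 and 0.655 for RHOA and 0.893 for FADD. On its first probe SOCS1 had a ratio near that of WEE1 in EV cells, but its ratio in sponge cells was 19.6, a log2 change of 0.03 (-0.03 and 0.08).

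With the sponge, 21 of the 44 probes (47.7%) were lower in IP/T in both orientations, against 30.3% of all retained probes. Of the 44, 10 were higher in both, against 30.6%, and the median change was -0.07, against -0.0025. The study followed up 6 of these genes, most of them for their response to miR-155 in another cell line. Without them 14 of 34 probes (41.2%) were lower in both orientations, and the median change was -0.02. With a common median for all channels the 21 of 44 became 13 of 43. The largest falls were RICTOR (-1.24), TRIM32 (-0.91) and CARHSP1 (-0.82), and ZNF652 was among the probes that rose (0.68). The other TRIM32 probe changed by -0.34. That RICTOR probe was well above background in 6 of 8 channels only, and the other RICTOR probe changed by 0.32.

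Relatives of the 9 genes were compared because they share the protein family of a target. Of 17 relatives, 16 genes were matched to 22 probes, and 13 probes of 10 genes were retained. An IP/T ratio of at least 2 was found for 2 of the 13 (15.4%), near the background of 14.8%. PKMYT1, the other CDK1 inhibitory kinase, had ratios of 1.54 and 1.80 on its 2 probes, where WEE1 had 17.7. BACH2 was not well above background in any channel. For CEBPB, CEBPA had a ratio of 0.295 on its 1 detected probe, which gave a mean log2 signal of 14.80 in EV total RNA. Its other probes were well above background in 0 channels, so it is uncertain whether that ratio is the one of CEBPA. CEBPG had a ratio of 1.33.

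INPPL1, the other SHIP phosphatase, had a ratio of 0.739 and lay below 1 as INPP5D did. HIVEP1 and HIVEP3 had ratios of 2.02 and 1.64, close to that of HIVEP2. The 2 retained FOXO1 probes disagreed with the sponge, with changes of 0.36 and -0.60. The probe that rose was well above background in all 8 channels, and the probe that fell in only 5. SPIB, an ETS factor close to SPI1, was detected in all 8 channels on 1 probe, with a ratio of 0.582. In the 13 probes, 2 were lower in IP/T in both orientations (30.3% of all retained probes) and 6 were higher in both (30.6%). The median change of the 13 was 0.12.

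Targets of BACH1, FOXO3 and SPI1, partners of WEE1 and genes of the INPP5D pathway were listed to see whether their RNA moved. They are called downstream genes for short, although the WEE1 and INPP5D entries are partners or pathway members. The list held 24 entries for 23 genes with 37 probes, and 29 probes of 19 genes were retained. None rose by 1.5-fold in total RNA in both labellings, and 1 fell, a probe of CCNG2, a cyclin induced by FOXO factors, with a log2 change of -0.82 (-0.88 and -0.75). In neither population did its Cy5 total channel pass background, and the call was lost with normexp and when all 8 channels were required. The other CCNG2 probe changed by -0.51 (-0.29 and -0.73). HMOX1, the haem oxygenase gene that BACH1 represses, had a total RNA change of 0.11. FTH1 has 5 retained probes and near-identical copies in the genome, so its values are uncertain.

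Many probes of downstream genes were also enriched. An IP/T ratio of at least 2 was found for 12 of the 29 probes (41.4%), against 14.8% of all retained probes. With the sponge 15 (51.7%) were lower in both orientations, against 30.3%, with a median change of -0.11. The shares of the 9 miR-155 targets, both 44.4%, are near those of this list, in which CSF1R alone is also on the list of other reported targets. With 1 value per gene, 7 of 19 downstream genes and 4 of 7 targets were enriched, and the difference was not tested. The highest ratio was that of CDKN1B, the p27 inhibitor of the cell cycle, at 18.6 on 1 probe and 6.67 on the other, and these probes changed by -0.18 and 0.39 with the sponge. BCL2L11 followed at 11.2. CDK1, the kinase that WEE1 phosphorylates, had a ratio of 1.52 in EV cells and 1.72 in sponge cells.

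The probes most like 3 of the targets were sought by the distance between their mean log2 signals in the 4 groups, each centred on its own mean, over 13432 probes detected in all 8 channels. Closest to BACH1, with the highest ratio, were ZNF429 (distance 0.337), MAPK6 (0.354) and DNAJB9 (0.371). Closest to WEE1, with the largest fall, were LONRF1 (0.190), CDKN1B (0.255) and TNRC6A (0.259). Their ratios in sponge cells were 15.1, 16.4 and 15.3, all above the 13.0 of WEE1. Closest to INPP5D, with the lowest ratio, were ST7 and OR7E156P (0.0148 each) and DNAAF2 (0.0263).

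As a check of the label, TNFRSF8 (CD30), CCL17, TRAF1, IRF4, FSCN1 and MIR155HG were detected in each of the 8 channels, and CCL22 in none. Of the B-cell markers reported here CD79A was detected in all 8, MS4A1 in 1, and CD79B, CD22 and PAX5 in none. The myeloid genes CSF1R and ITGAM were detected in all 8 channels, CD14 in 6 and LYZ in none. Of the T-cell genes CD2 was detected in 6 channels, CD3E in 4 on 1 of its 2 probes and in none on the other, CD3G in 3 and CD3D in 1. Over all gene spots, Cy3 channels had 58.9% to 61.9% well above background and Cy5 channels 38.8% to 43.4%. Dim probes are therefore less certain in Cy5.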

How the data were processed

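Total and Ago2-IP RNA of EV and miR-155-sp KM-H2 cells was hybridized to 4 two-colour Agilent whole genome arrays. The authors deposited, per the file headers, Feature Extraction output with linear intensity values for each dye (version 10.7.3.1; the submitters' notes name 10.5.1.1), which is background-subtracted and dye-normalized, and a table of log2 values for 16065 probes. From the processed intensities, control spots and outlier spots (74 to 100 per channel) were left out, spots of a probe were averaged, and the 8 channels were quantile normalized, as the study's methods describe. Probes were retained if well above background in at least 4 channels and within 2-fold between labellings in every RNA, and labellings were averaged on the log2 scale. The log2 values so obtained differed from those the authors deposited by a median of 0.0006. No gene spot was saturated.

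Probes were named by transcript accession through RefSeq (GRCh38.p14), which named 23953 of 41000. No coordinates were taken from that table for genes, since the genome build of the probes differs.

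Labellings are technical repeats (1 sample per group), so values are described with both dye orientations and no test was run. Calls are counts past 2-fold, or with the same sign in both orientations, given beside the share of all retained probes. The number of arrays limits the precision. Alternatives covered background correction (normexp, offset 50, limma 3.58.1 in R 4.3.3), normalization, filters, labellings and the choice of probe. The calculation was tested on simulated data. The genes, lists and comparisons were chosen with earlier results of these data known. The named genes were all member probes, the extremes of each list (up to 3 each way), relatives of members, and the closest probes. Some of these genes are not reported here. In the lists of relatives and downstream genes, HMOX1, FTH1, CDK1 and BCL2L11 were named for their role or level after their values were seen. Python 3.11.15 with numpy 2.4.6, pandas 2.3.3 and matplotlib 3.10.9 was used.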

Additional observations from a re-analysis of the deposited data

How the results depend on the processing

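No paired analysis was possible because the replicate numbers only name the dye labellings of 1 RNA per group. In 15 alternatives, 165 group values stayed within their limits, 46 moved and 1 reversed. These follow, and their cause was not tested. The median sponge change of log2 IP/T (-0.11) was -0.0244 with a common median, -0.158 with normexp and loess, and -0.167 both without the agreement filter and with the highest probe per gene. By single labellings it was -0.119 to -0.0457. That of total RNA (-0.14) turned to 0.0153 with normexp and loess, and was -0.0159 with normexp and quantile normalization, -0.0624 with all 8 channels or a 1.5-fold agreement, -0.0488 with the IP in Cy5 alone, and -0.137 to -0.0488 by single labellings. That of IP RNA (-0.08) was -0.268 with normexp and quantile normalization, -0.171 with the deposited values, -0.167 with all 8 channels or a 1.5-fold agreement, -0.249 without the agreement filter or with the highest probe, -0.191 with the IP in Cy5 alone, and -0.191 to -0.0864 by single labellings.

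The median log2 IP/T in EV cells was 1.48 with all 8 channels or a 1.5-fold agreement. The count of enriched probes in EV cells (4 of 9) was 2 of 10 with normexp and loess, where BACH1 was dropped for dye disagreement. No share over all retained probes is given for that setting. That in sponge cells (5 of 9) was 2 of 10 with normexp and loess and 3 of 11 with normexp and quantile normalization. With all 8 channels or a 1.5-fold agreement it was 3 of 6. BACH1 reversed its change in IP/T, to 0.0395 in Cy3 alone (-0.373 in Cy5 alone). The changes of HIVEP2 (-0.17 to 0.10), FOXO3 (-0.13 to 0.16) and the dim probes also took both signs, while those of WEE1, the bright CEBPB probe and INPP5D were negative in every alternative computed.

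Of the other targets, those enriched (21 of 44) were 13 and 12 of 54 with normexp (loess, quantile). Those lower in both orientations (21 of 44) were 13 of 43 with a common median. The enriched relatives (2 of 13) numbered 0 or 1, of 9 to 13, in 10 alternatives. Those lower in both (2 of 13) were 0 of 10 with the deposited values, 0 of 9 with all 8 channels and 1 of 9 with a 1.5-fold agreement. The enriched downstream probes (12 of 29) were 7 of 19 by 1 value per gene, and the 1 CCNG2 fall was 0 with either normexp or all 8 channels. Single labellings give no count over both orientations. Cy5 signal over background limits the dim probes.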
